A study of Mus musculus with 71 samples.

Results

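Hif1a and 9 further genes of the oxygen-sensing pathway were followed through an allelic series of the mouse miR-17~92 locus. The 10 genes (Hif1a, Epas1, Egln1, Egln3, Vegfa, Slc2a1, Pdk1, Ldha, Bnip3 and Car9) were chosen by name for their part in the response to low oxygen, out of 37620 genes in the deposited count table. All 10 passed the filter on low counts in all 3 tissues.

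The series held 71 RNA-seq libraries from C57BL/6 embryos at embryonic day 9.5 (20 to 22 somites), in 24 groups of 8 genotypes and 3 tissues. The genotypes were wild type, Delta_17 (miR-17 and miR-20a deleted), Delta_18 (miR-18a deleted), Delta_19 (miR-19a and miR-19b-1 deleted), Delta_92 (miR-92a-1 deleted), Delta_17_18, Delta_17_18_92 and a full knockout of the cluster. The tissues were microdissected tail bud, microdissected heart and what was left of the embryo after both were taken, named the remaining embryo and marked as rest of embryo in the plots. Each group had 3 biological replicates, apart from Delta_17_18_92 in the remaining embryo, which had 2. The labels name no oxygen treatment of any group. Whether tissue of several embryos was pooled is not given in the sources used here. The labels name no change at the paralogous clusters elsewhere in the genome, whose miRNAs share these seeds.

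Hypoxia-inducible factors are transcription factors made of an oxygen-regulated alpha subunit, such as HIF-1alpha (Hif1a) or HIF-2alpha (Epas1), and a stable beta subunit. When oxygen is plentiful, prolyl hydroxylases (Egln1 and Egln3 encode PHD2 and PHD3) mark the alpha subunit for the von Hippel-Lindau ubiquitin ligase, and the asparagine hydroxylase FIH, encoded by Hif1an, blocks its coactivator contact. When oxygen is low, the alpha subunit escapes and binds ACGTG or GCGTG core elements near genes for blood vessel growth (Vegfa), glucose uptake and glycolysis (Slc2a1, Ldha), mitochondrial restraint (Pdk1, Bnip3) and pH balance (Car9). Oxygen acts on the alpha subunit mainly through protein stability, which mRNA levels do not report.

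The miRNAs deleted in the series fall into 4 seed families, and their mature sequences from RefSeq (GRCm38.p6) are shown because the genotypes differ by these seeds. Capitals mark the seed, bases 2 to 8 from the 5′ end. miR-17 and miR-20a share a seed, as do miR-19a and miR-19b.
miR-17-5p: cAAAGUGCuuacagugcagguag
miR-20a-5p: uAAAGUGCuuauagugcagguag
miR-18a-5p: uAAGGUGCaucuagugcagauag
miR-19a-3p: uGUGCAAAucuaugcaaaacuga
miR-19b-3p: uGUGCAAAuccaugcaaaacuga
miR-92a-3p: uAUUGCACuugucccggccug

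Matches to the miR-17 seed were found in the longest annotated 3′ UTR of 4 of the 10 genes, Hif1a, Epas1, Egln3 and Vegfa, and of the regulators Hif1an and Vhl. They are shown because each family term of the 10 genes that passed the test below was a miR-17 term. Capitals mark the bases that pair with the seed, and in Egln3 the following A as well, which makes it an 8mer. Coordinates are GRCm38.
Hif1a (chr12:73946658-73946686, plus strand): aatatgatgtttggttttatGCACTTTgt
Egln3 (chr12:54180323-54180352, minus strand): cccaggactgcttcttattcGCACTTTAtg
Epas1 (chr17:86832856-86832884, plus strand): ctgaaaatcgtgttccaagaGCACTTTgt
Vegfa (chr17:46018688-46018716, minus strand): aagaggagactcttcgaggaGCACTTTgg
Hif1an (chr19:44575433-44575461, plus strand): cctgactggagccccattgaGCACTTTgg
Vhl (chr6:113630111-113630139, plus strand): ttctgatttcccacgtcccaGCACTTTct
Such matches are common. Among 3′ UTRs within 20% of the same length, 15.0% held one for Hif1a, 18.1% for Epas1, 15.4% for Vegfa, 36.6% for Hif1an and 16.4% for Vhl, and 3.44% held an 8mer at the length of the Egln3 UTR. The Hif1a site starts at base 975 of its 1827-base UTR. Other seeds matched too: miR-18 in Epas1, Pdk1 and Bnip3, miR-19 in Egln1 and Bnip3, and miR-92 in Egln3. Hif1a also holds one match to the miR-18 seed (9.56% of like-length UTRs do), and it is printed because the Delta_18 values of Hif1a are given below.
Hif1a, miR-18 match (chr12:73945987-73946015, plus strand): gctgtagtgtcatttaaaatGCACCTTtt

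Library depth ranged from 13532012 to 27477273 counted reads, with a median of 21103719. The labelled tissues carried their defining markers: the summed level of 7 cardiomyocyte genes was 21211 to 25881 CPM (the read count per gene scaled by library size) in heart, 6.24 to 21.3 in tail bud and 127 to 413 in the remaining embryo, and 6 tail bud genes summed to 543 to 879 CPM in tail bud and 5.56 to 18.5 in heart. Primitive erythroid genes varied most, from 799.8 to 12149 CPM in tail bud. Some libraries stood apart. Wild-type tail bud replicate 3 was the highest of the 24 tail bud libraries for 22.8% of all genes tested and the lowest for 19.3%. Delta_19 replicate 1 carried the highest level of several of the 10 genes in every tissue, as described below. Where leaving out one of them ends or makes a call named here, this is stated. These are bulk samples, so fewer cells of a type and less RNA per cell cannot be told apart.

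Hif1a, at chr12:73901375-73947530 on the plus strand of GRCm38 (ENSMUSG00000021109), was higher in tail bud and in the remaining embryo of each genotype that lacks miR-17 and miR-20a. In wild-type tail bud its level was 289, 280.4 and 278 CPM in the 3 replicates. The full knockout held 352, 333 and 339 CPM. Delta_17 held 327, 345 and 334 CPM. All libraries of both mutants lay above all wild-type ones, and so did those of Delta_17_18 (341, 318 and 333 CPM) and Delta_17_18_92 (329.7, 359 and 341 CPM). In the genotypes that keep miR-17 the levels lay closer to wild type: Delta_19 held 265, 281 and 288 CPM and Delta_92 held 277, 268 and 287 CPM. Delta_18 held 293, 311 and 315 CPM, just above wild type without overlap. Of all genes, 13.5% lay wholly above wild type in the knockout, 8.46% in Delta_17, 12.6% in Delta_17_18, 11.2% in Delta_17_18_92 and 6.39% in Delta_18.

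As log2 fold changes against wild type in tail bud, Hif1a rose by 0.27 ± 0.05 (SE) in the full knockout (adjusted p = 0.000296, edgeR quasi-likelihood test with Benjamini-Hochberg adjustment over all genes tested). The rise was 0.25 in Delta_17 (adjusted p = 0.00245), 0.23 in Delta_17_18 (adjusted p = 0.00355) and 0.28 in Delta_17_18_92 (adjusted p = 0.000333). Delta_18 gave 0.12 (adjusted p = 0.316), Delta_19 -0.02 (adjusted p = 0.854) and Delta_92 -0.03 (adjusted p = 0.859), none of them past the threshold of 0.05. All mutants of a tissue were set against the same 3 wild-type libraries, so their fold changes are not independent of each other. The 4 tail bud calls ended when the fit held only the 2 groups compared, with adjusted p of 0.0509 in the full knockout, 0.210 in Delta_17, 0.156 in Delta_17_18 and 0.0949 in Delta_17_18_92.

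The remaining embryo gave Hif1a changes of like size with less spread. Wild type held 248, 245 and 253 CPM and the full knockout 303, 308 and 300.5 CPM. Delta_17 held 295, 306 and 296 CPM, Delta_17_18 held 299, 288 and 306 CPM, and the 2 libraries of Delta_17_18_92 held 294 and 306 CPM. No library of these 4 mutants overlapped wild type, which was so for 12.4%, 8.74%, 12.4% and 17.6% of all genes in the higher direction. The log2 fold changes were 0.29 ± 0.04 in the full knockout (adjusted p = 6.66e-06), 0.27 in Delta_17 (adjusted p = 7.51e-05), 0.26 in Delta_17_18 (adjusted p = 7.31e-05) and 0.27 in Delta_17_18_92 (adjusted p = 0.000138). Delta_18 libraries again sat between the 2 sets, at 265, 281 and 266 CPM (log2 fold change 0.12, adjusted p = 0.189), above wild type without overlap, as were 7.73% of all genes. Delta_19 (217, 238 and 241 CPM) and Delta_92 (242, 228 and 226 CPM) lay wholly below wild type, each with a log2 fold change of -0.10 that did not pass the test (adjusted p = 0.234 and 0.478). Of all genes, 9.33% and 7.08% did so.

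Heart held the highest Hif1a level, and its genotypes overlapped more. Wild-type hearts held 535, 546 and 529 CPM, and full-knockout hearts held 533, 579 and 542 CPM, which overlap (log2 fold change 0.04 ± 0.06, adjusted p = 0.808). Delta_17 (623, 571 and 573 CPM) and Delta_17_18 (603, 566 and 597 CPM) lay above wild type without overlap, as did 8.08% and 9.04% of all genes, and each had a log2 fold change of 0.13 that did not pass the test (adjusted p = 0.499 and 0.304). Delta_92 hearts (486, 501 and 521 CPM) lay wholly below wild type, as did 5.44% of all genes (-0.09, adjusted p = 0.912). No mutant passed the test for Hif1a in heart.

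**Figure D1:**
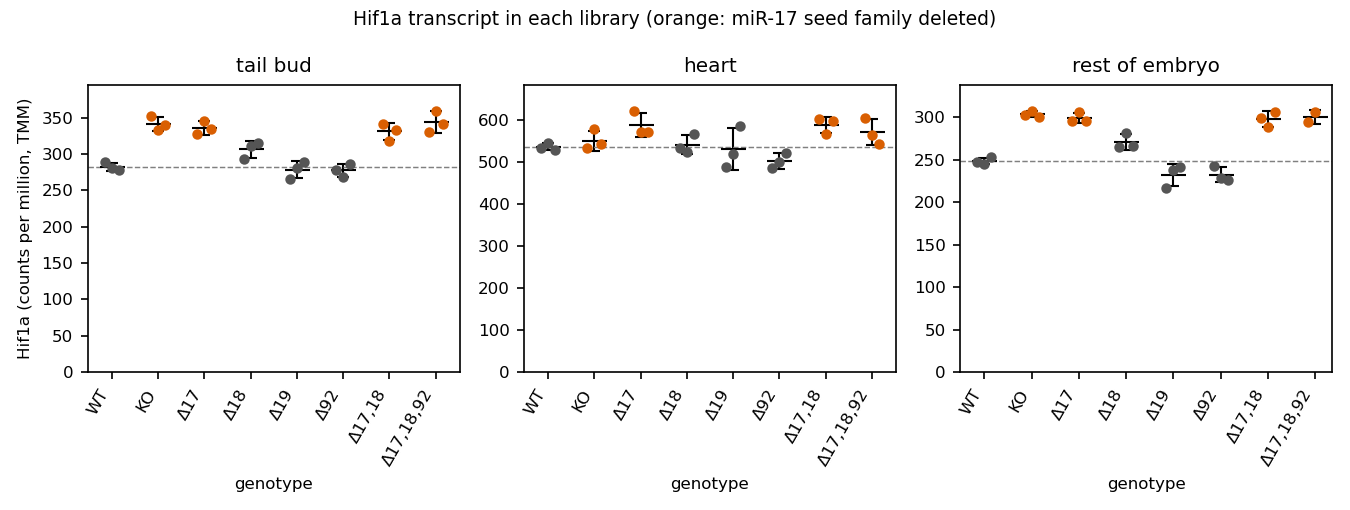
Hif1a level in each of the 71 libraries, in CPM (vertical axis), by genotype (horizontal axis) and tissue (panels); orange points are genotypes that lack miR-17 and miR-20a, bars are the mean and SD of a group, and the dashed line is the wild-type mean. In tail bud and the remaining embryo the orange points sit above all wild-type points, while in heart the knockout and wild-type points overlap.

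Each genotype can also be described by the seed families it lacks, which uses all libraries of a tissue to estimate 1 additive term per family. The miR-17 loss term of Hif1a was 0.21 ± 0.03 (log2, SE) in tail bud (adjusted p = 8.95e-06), 0.14 ± 0.03 in heart (adjusted p = 0.0139) and 0.25 ± 0.03 in the remaining embryo (adjusted p = 5.56e-08). Of the 10 genes, 2 passed for this term in tail bud, 1 in heart, and 2 for the remaining embryo, where 5.44%, 3.61% and 7.49% of all genes did. The heart term of Hif1a ended without Delta_17 replicate 1 (adjusted p = 0.0974). The miR-18 loss term was 0.07 in tail bud (adjusted p = 0.28), against 0.11 in the remaining embryo (adjusted p = 0.0694), neither past the threshold. The latter passed in 4 of 27 alternatives (upper quartile factors, no filter, DESeq2 and without Delta_17_18 replicate 2, with adjusted p of 0.0327 to 0.0429). A test of departure from additivity did not pass for Hif1a in tail bud (adjusted p = 0.848), heart (adjusted p = 0.966) or the remaining embryo (adjusted p = 0.309).

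Whether the knockout acted on Hif1a differently in the 3 tissues was tested in the 18 wild-type and knockout libraries, taken as independent. The knockout effect in heart was lower than in tail bud by a log2 difference of -0.24 ± 0.06 (adjusted p = 0.166) and lower than in the remaining embryo by -0.26 ± 0.06 (adjusted p = 0.167). The edgeR test over any tissue difference gave an adjusted p of 0.158 (0.000361 unadjusted), so the difference was not established. DESeq2 called it (adjusted p = 0.00057), and so did edgeR without wild-type tail bud replicate 3 (adjusted p = 0.0379). With the miR-17 loss term taken from all 71 libraries, an alternative chosen after seeing the data, the heart and tail bud terms differed by -0.08 and the test over any difference gave an adjusted p of 0.684. None of the 10 genes passed this tissue test with edgeR, beside 0.0399% of all genes, and DESeq2 called 1 of the 10. An unadjusted p under 0.05 was found for 3 (Hif1a, Bnip3 and Pdk1), and the share of all genes at that cut was not counted.

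Epas1 encodes HIF-2alpha, the alpha subunit known for its role in endothelium, and its mRNA was far less abundant than that of Hif1a. In the remaining embryo wild type held 24.9, 27.4 and 25.1 CPM, and Delta_17_18_92 held 33.1 and 35.4 CPM. Both mutant libraries lay above wild type, as did those of 17.6% of all genes, and the log2 fold change was 0.41 ± 0.11 (adjusted p = 0.0317). The call ended in 5 of 28 alternatives, with the replicate number as a block and without wild-type replicate 1, wild-type replicate 3 or either mutant library (adjusted p up to 0.253). In that same mutant and tissue 4 of 6 endothelial markers and 4 of 7 cardiomyocyte markers rose, beside 4.27% of all genes. The endothelial list holds Pecam1, Cdh5, Tek, Cldn5, Emcn and Tie1. Its summed level was 346 and 371 CPM against 298 to 310 CPM in wild type. The part of these cell types in the Epas1 change was not tested. In tail bud the knockout held 23.1, 23.2 and 22.9 CPM against 21.8, 19.6 and 19.9 CPM in wild type, without overlap (13.5% of all genes) and without passing the test, and no other genotype passed in any tissue.

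Egln1, the main prolyl hydroxylase (PHD2), did not pass the test in any mutant or for any family term as fitted. Its levels in tail bud were 89.5, 86 and 79.5 CPM in wild type and 85, 81 and 80.8 CPM in the knockout, and in heart 135, 123 and 116 CPM against 134, 125 and 131 CPM. Its miR-19 loss term in the remaining embryo was 0.11 ± 0.04 (adjusted p = 0.0647) and its miR-92 loss term -0.11 ± 0.04 (adjusted p = 0.0787). Both passed with the replicate number as a block, without Delta_92 replicate 1 and without Delta_19 replicate 3. The miR-19 term also passed with DESeq2. Adjusted p was 0.00701 to 0.0476 for miR-19 and 0.0163 to 0.04 for miR-92 in these fits. The longest 3′ UTR of Egln1 holds 2 matches to the miR-19 seed, 1 of them an 8mer, and none to the miR-92 seed. Among UTRs of like length, 15.4% hold a miR-19 match and 7.04% an 8mer. The part of these matches in the terms was not tested.

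Egln3 (PHD3), a prolyl hydroxylase whose gene is itself a HIF target, had a miR-17 loss term that passed in 2 tissues. In the remaining embryo wild type held 10.5, 11.2 and 12.2 CPM and the full knockout 15, 13.4 and 14.6 CPM, without overlap, as did 12.4% of all genes in the higher direction. Delta_17_18 held 15.7, 13.6 and 15.3 CPM, Delta_17_18_92 held 14.1 and 14.4 CPM, and Delta_17 held 11.7, 12.3 and 13.2 CPM, which overlaps wild type. The miR-17 loss term of Egln3 was 0.30 ± 0.08 in the remaining embryo (adjusted p = 0.0114) and 0.34 ± 0.09 in tail bud (adjusted p = 0.0296). It was 0.08 in heart (adjusted p = 0.793), where wild type held 9.56, 6.38 and 8.8 CPM. In tail bud the miR-17 mutants were not shown to exceed wild type. Wild type held 19.5, 19.0 and 25.5 CPM there, the knockout 25.2, 23.8 and 22.9 CPM and Delta_17 19.9, 22.4 and 24.2 CPM, which overlap. The 4 mutants that lack miR-17 had log2 fold changes against wild type of 0.17, 0.06, 0.12 and 0.15 (knockout, Delta_17, Delta_17_18 and Delta_17_18_92), none past the test, while Delta_92 (16.9, 16.3 and 16.7 CPM) lay wholly below wild type, as did 5.72% of all genes, with a log2 fold change of -0.35 (adjusted p = 0.355). The tail bud term ended without Delta_17 replicate 2 or 3, or any 1 of the Delta_18 libraries (adjusted p 0.0569 to 0.0933), while the term in the remaining embryo passed in all 27 alternatives.

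No single mutant passed for Egln3 as fitted: in the remaining embryo the knockout gave 0.34 (adjusted p = 0.119), Delta_17_18 gave 0.38 (adjusted p = 0.0816) and Delta_17_18_92 gave 0.33 (adjusted p = 0.19). Delta_19 replicate 1 was at 13.3 CPM beside 8.99 and 7.58 CPM in the other Delta_19 libraries, and all groups of the fit share 1 estimate of the spread. Without that library all 3 mutants passed (adjusted p = 0.0237, 0.0147 and 0.0497), and with only the 2 groups in the fit the knockout (adjusted p = 0.0294) and Delta_17_18 (adjusted p = 0.00845) did. In tail bud the same Delta_19 replicate held 23.5 CPM beside 13.9 and 14.1 CPM. As fitted, Delta_19 gave a log2 fold change of -0.31 (adjusted p = 0.263), and without that library -0.60 (adjusted p = 0.00688).

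Hif1an, which encodes FIH, the asparagine hydroxylase that restrains HIF-1alpha, rose in all 3 tissues without miR-17 and miR-20a. Hif1an belongs to a list of 11 other HIF subunits and regulators. In tail bud wild type held 180.0, 178 and 175 CPM, the full knockout 253, 267 and 266 CPM and Delta_17 270.1, 259 and 254 CPM. In heart the values were 139, 148 and 142 CPM in wild type, 188, 206 and 223 CPM in the knockout and 215, 196 and 204 CPM in Delta_17. In the remaining embryo they were 167, 173 and 165 CPM, 225, 222 and 222 CPM, and 228, 227 and 226 CPM. No library of either mutant overlapped wild type in any tissue. Of all genes, 13.5%, 12.4% and 12.4% lay wholly above wild type in the knockout (tail bud, heart and remaining embryo). In Delta_17 the shares were 8.46%, 8.08% and 8.74%.

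The Hif1an log2 fold change in the full knockout was 0.56 ± 0.04 in tail bud (adjusted p = 1.34e-09), 0.52 ± 0.06 in heart (adjusted p = 2.25e-06) and 0.40 ± 0.04 in the remaining embryo (adjusted p = 2.42e-08). Delta_17 alone gave 0.56, 0.52 and 0.43. Hif1an was called in all 4 mutants that lack miR-17 in all 3 tissues, and in none of Delta_18, Delta_19 and Delta_92, whose lowest adjusted p was 0.419. The miR-17 loss term was 0.56 ± 0.02 in tail bud (adjusted p = 2.04e-16), 0.49 ± 0.03 in heart (adjusted p = 2.38e-11) and 0.50 ± 0.02 in the remaining embryo (adjusted p = 6.57e-16). The knockout effect on Hif1an was not shown to differ between tissues (adjusted p = 0.776). In tail bud and the remaining embryo the mRNAs of Hif1a and of its inhibitor Hif1an thus both rose in the same mutants.

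**Figure D2:**
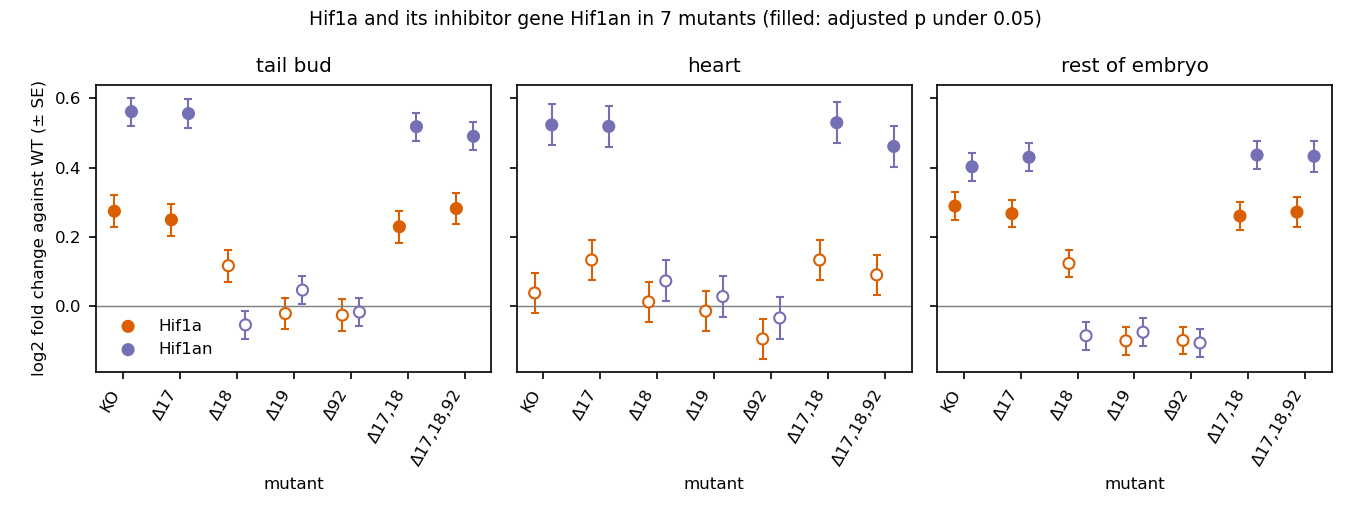
Log2 fold change against wild type of Hif1a and Hif1an (vertical axis) in the 7 mutants (horizontal axis) and 3 tissues (panels), with bars of 1 SE; Hif1a is orange, Hif1an is purple, and filled points have an adjusted p under 0.05. Hif1an is filled in the 4 genotypes that lack miR-17 in every tissue, and Hif1a in the same 4 of tail bud and the remaining embryo but in none of heart.

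In the full knockout, 1 of the 11 on that list, Hif1an itself, rose and 3 fell in tail bud, 2 rose and 0 fell in heart (Hif1an and Arnt2), and 1 rose (Hif1an) and 1 fell in the remaining embryo, where all genes passed at 10.4%, 3.91% and 6.66%. The 3 that fell in tail bud were components of the von Hippel-Lindau ligase: Elob (-0.33 ± 0.10, adjusted p = 0.0352), Rbx1 (-0.24 ± 0.07, adjusted p = 0.0399) and Eloc (-0.23 ± 0.07, adjusted p = 0.0405). All 3 calls ended without wild-type tail bud replicate 3, in which Elob was 59.3 CPM against 40.9 and 38.3 CPM in the other wild-type libraries and 35.9 to 36.9 CPM in the knockout. They also ended without knockout replicate 2 or 3 and with only the 2 groups compared. Of 29 alternatives, 5 ended the call of Elob, 4 that of Rbx1 and 8 that of Eloc. Cul2, the scaffold of that ligase, fell in the remaining embryo by 0.13 ± 0.04 (adjusted p = 0.0369), a call that ended in 6 of 28 alternatives.

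Vhl, the substrate-binding subunit of the ligase, had a miR-17 loss term of 0.13 ± 0.03 in the remaining embryo (adjusted p = 0.00603). It did not pass in tail bud (0.11, adjusted p = 0.211) or heart (0.08, adjusted p = 0.405). Arnt2, a beta subunit known mainly from neural tissue, rose in knockout heart from 7.98, 7.57 and 7.37 CPM to 10.5, 13.1 and 9.82 CPM (0.54 ± 0.13, adjusted p = 0.0136), which ended without wild-type replicate 2 or 3 or knockout replicate 2. Hif3a, a further alpha subunit, had a miR-92 loss term of -0.29 ± 0.07 in the remaining embryo (adjusted p = 0.0196).

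Over the 7 mutants, 4 of 70 tests of the 10 genes passed in tail bud, 1 of 70 in heart, and 5 of 70 for the remaining embryo, where 3.94%, 1.14% and 3.02% of all gene tests passed. Hif1a made up all 4 calls in tail bud and 4 of the 5 in the remaining embryo, and Car9 and Epas1 the other two. Among the targets Vegfa, Slc2a1, Pdk1, Ldha, Bnip3 and Car9, the 1 call as fitted was that of Car9 in heart. Of the 40 family terms in each tissue, 2 passed in tail bud, 1 in heart, and 2 for the remaining embryo (background 3.69%, 2.41% and 5%), all of them miR-17 terms of Hif1a or Egln3. The median log2 fold change of the 10 genes in the full knockout was -0.05 in tail bud, 0.06 in heart, and 0.08 for the remaining embryo, beside -0.01, 0.00 and -0.00 over all genes.

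**Figure D3:**
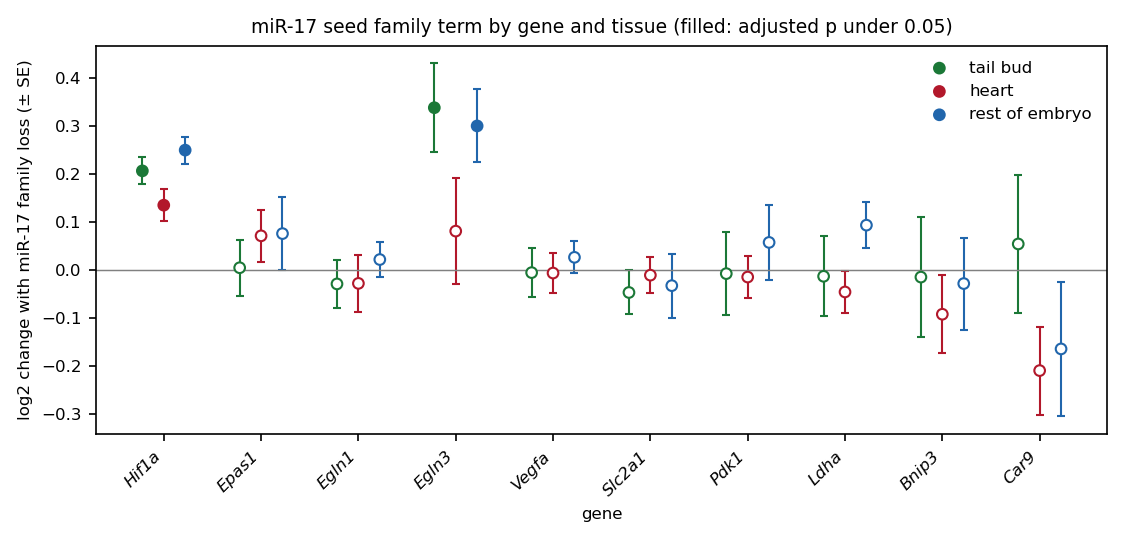
miR-17 loss term (log2, vertical axis) of each of the 10 genes (horizontal axis) in the 3 tissues (colours), with bars of 1 SE; filled points have an adjusted p under 0.05. Filled points are Hif1a in all 3 tissues and Egln3 in tail bud and the remaining embryo, while the points of the other 8 genes are open.

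Vegfa, the growth factor for blood vessels, held 123, 114 and 107 CPM in wild-type tail bud and 123, 123 and 121 CPM in the knockout. Wild type held 79.8, 77 and 83.7 CPM in the remaining embryo, and Delta_17_18 held 92.1, 88.3 and 86.6 CPM, above wild type without overlap (log2 fold change 0.15 ± 0.05, adjusted p = 0.0966). Delta_17, Delta_18, Delta_92 and Delta_17_18_92 also lay wholly above wild type there, and the knockout and Delta_19 overlapped it. Of all genes, 12.4% lay so in Delta_17_18, 8.74% in Delta_17, 7.73% in Delta_18, 7.11% in Delta_92 and 17.6% in Delta_17_18_92. No mutant or family term passed for Vegfa as fitted. In the remaining embryo Delta_17_18 passed with only the 2 groups compared (adjusted p = 0.026) and with no filter on low counts (adjusted p = 0.0473), and Delta_17_18_92 with no filter (adjusted p = 0.0376) and without Delta_19 replicate 1 (adjusted p = 0.0469).

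Slc2a1, the glucose transporter GLUT1, overlapped wild type in the knockout in all tissues: 483, 442 and 449 CPM against 472, 439.9 and 406 CPM in tail bud, and 543, 493 and 419 CPM against 575, 485 and 467 CPM in the remaining embryo. Pdk1, a pyruvate dehydrogenase kinase, held 127, 123 and 124 CPM in the wild-type remaining embryo. The knockout held 143, 139 and 144 CPM, without overlap (12.4% of all genes). The Pdk1 log2 fold change of 0.18 ± 0.14 did not pass as fitted (adjusted p = 0.549). Delta_19 replicate 1 was at 198 CPM in the same fit, and without that library the knockout gave 0.19 and passed (adjusted p = 0.0272), as did Delta_17_18_92 (adjusted p = 0.0489). The miR-18 loss term of Pdk1 in the remaining embryo also passed without that library (0.15, adjusted p = 0.0261). With only the 2 groups in the fit, Pdk1 passed as higher in the knockout (adjusted p = 0.00264), Delta_18 (adjusted p = 0.0279), Delta_17_18 (adjusted p = 0.00512) and Delta_17_18_92 (adjusted p = 0.00418). With no filter on low counts the knockout (adjusted p = 0.000745), Delta_18, Delta_19, Delta_17_18 and Delta_17_18_92 passed.

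Ldha, lactate dehydrogenase A, held 1628, 1372 and 2180.2 CPM in wild-type tail bud and 1473, 1386 and 1352 CPM in the knockout, which overlap. Tail bud log2 fold changes did not pass in any mutant, and the lowest adjusted p was 0.0757, in Delta_17_18 (-0.37 ± 0.13). Wild-type replicate 3 was the highest of all 24 tail bud libraries. Without it the knockout value moved from -0.30 to -0.10 (adjusted p = 0.726) and that of Delta_17_18 to -0.17 (adjusted p = 0.469). DESeq2 with all libraries called Delta_17_18 (adjusted p = 0.0397). Without wild-type replicate 2, the lowest of the 3, the knockout (adjusted p = 0.0133), Delta_18 (adjusted p = 0.0281), Delta_19 (adjusted p = 0.0304), Delta_17_18 (adjusted p = 0.00594) and Delta_17_18_92 (adjusted p = 0.0165) passed as lower.

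Bnip3, a mitochondrial protein that promotes mitophagy, held 24.9, 23 and 25.4 CPM in wild-type tail bud against 20.5, 22.8 and 19.4 CPM in the knockout, and 19.4, 17.2 and 18.5 CPM against 20.3, 21.6 and 22.6 CPM in the remaining embryo. The knockout lay wholly below wild type in the first and wholly above it in the second, and neither difference passed. Such non-overlap was found for 12.8% of all genes in the lower direction in tail bud and 12.4% in the higher direction in the remaining embryo. In the remaining embryo 6 of the 7 mutants lay wholly above wild type, all but Delta_92, beside 8.04% of all genes in Delta_19 and the shares given above in the others. The largest value was that of Delta_19 (35.9, 19.7 and 20.8 CPM, log2 fold change 0.48, adjusted p = 0.163), which was 0.15 without replicate 1 (adjusted p = 0.596). It passed with DESeq2 (adjusted p = 0.023), with no filter (adjusted p = 3.83e-06) and without replicate 2 (adjusted p = 0.0362), Delta_18 passed with no filter (adjusted p = 0.0256), and Delta_17_18 with only the 2 groups compared (adjusted p = 0.0449). In tail bud Delta_92 (15.4, 22.4 and 20.3 CPM) also lay wholly below wild type.

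Car9, the membrane carbonic anhydrase that is among the most oxygen-responsive HIF targets, was lower in Delta_17_18_92 heart. Wild-type hearts held 7.12, 7.07 and 6.62 CPM and Delta_17_18_92 hearts 4.13, 5 and 5.03 CPM (log2 fold change -0.56 ± 0.15, adjusted p = 0.045). Knockout hearts (5.54, 5.55 and 4.37 CPM), Delta_17 (5.61, 5.48 and 5.97 CPM) and Delta_17_18 hearts (4.43, 5.98 and 4.46 CPM) also lay below wild type without overlap, with adjusted p of 0.108, 0.649 and 0.115. So did Delta_19 hearts, which keep miR-17 (6.04, 5.18 and 5.05 CPM, log2 fold change -0.36, adjusted p = 0.345), while Delta_18 and Delta_92 hearts overlapped wild type. Of all genes, 12.3%, 7.05%, 8.35% and 9.01% lay wholly below wild type in these 4 mutants and 8.97% in Delta_17_18_92. With no filter on low counts Delta_17_18 passed (adjusted p = 0.0375). The Delta_17_18_92 call ended in 17 of 29 alternatives, among them leaving out any 1 of the 3 wild-type or any 1 of the 3 mutant libraries, with adjusted p up to 0.215.

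In wild-type embryos, 8 of the 10 genes were most abundant in heart by the test: 8 were higher in heart than in tail bud and 9 higher than in the remaining embryo, beside 33.8% and 34% of all genes. Levels here are CPM per kilobase of exon (mean ± SD, n = 3), normalised over the 9 wild-type libraries, so that genes can be set beside each other. Of 30 tests over 3 tissue pairs, 25 passed, where 55.5% of all gene tests did. Hif1a was at 45.9 ± 1.15 in tail bud, 102 ± 2.11 in heart, and 39.2 ± 0.603 for the remaining embryo. Heart exceeded tail bud by a log2 difference of 1.15 ± 0.05 (adjusted p = 6.72e-10), and tail bud exceeded the remaining embryo by 0.23 ± 0.05 (adjusted p = 0.00526). Epas1 was at 3.5 in tail bud, 6.83 in heart, and 4.29 for the remaining embryo.

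Of the glycolytic, mitochondrial and pH targets, Slc2a1, Pdk1, Bnip3 and Car9 were also higher in heart than in both other tissues. Slc2a1 was at 125 per kilobase in tail bud, 406 ± 32.1 in heart, and 129 for the remaining embryo, a log2 difference of 1.70 ± 0.09 between heart and tail bud (adjusted p = 4.45e-09). Tail bud and the remaining embryo did not differ beyond their spread (-0.04). Pdk1 was at 19.3, 45.1 and 14.9, and Bnip3 at 10.4, 31.3 and 7.54. Car9 had the largest heart excess, 2.59 ± 0.18 over tail bud and 2.43 ± 0.18 over the remaining embryo, at a low level of 0.544, 3.38 and 0.623. Ldha was the most abundant of the 10, at 499.8 ± 117 in tail bud, 613 ± 37.3 in heart, and 364 ± 23.2 for the remaining embryo. Its heart and tail bud levels were not called different (0.30, adjusted p = 0.0631), and in 4 of 14 alternatives they were: with the replicate number as a block (0.31, adjusted p = 0.0285), with DESeq2 (adjusted p = 0.0346), in the fit of all 71 libraries (adjusted p = 0.00762) and without wild-type tail bud replicate 3 (0.49, adjusted p = 0.000124).

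The hydroxylases differed from each other across wild-type tissues. Egln1 was at 22.7 per kilobase in tail bud, 38.9 in heart, and 24.2 for the remaining embryo, and heart was higher than both (log2 differences 0.78 and 0.69). Egln3 went the other way: at 7.69 ± 1.24 in tail bud, 3.47 ± 0.707 in heart, and 3.96 ± 0.303 for the remaining embryo, it was lower in heart than in tail bud by -1.14 ± 0.15 (adjusted p = 2.22e-05) and not different between heart and the remaining embryo (-0.19, adjusted p = 0.298). Vegfa was at 25.6, 37.8 and 17.4, and each pair of tissues differed. Of 15 other glycolysis genes, 12 were higher and 2 lower in heart than in the remaining embryo, and 9 higher and 4 lower in heart than in tail bud, where 68.1% and 68.6% of all genes passed.

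**Figure D4:**
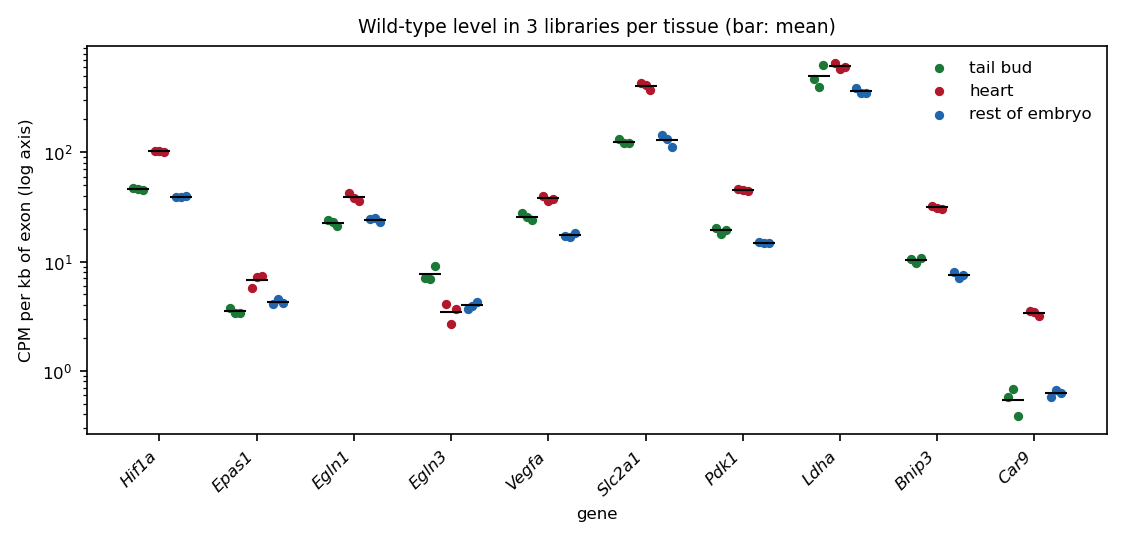
Wild-type level of the 10 genes, in CPM per kilobase of exon on a log axis, in tail bud, heart and the remaining embryo (points are the 3 replicates, bars the mean). The heart mean is the highest of the 3 for all genes but Egln3, whose highest mean is in tail bud.

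One replicate stood apart in several of the 10 genes, though not in all HIF targets, and it was singled out after its values were seen. Delta_19 replicate 1 was the highest of all libraries of its tissue for 5 of the 10 genes in tail bud, 5 in heart, and 7 for the remaining embryo, beside 5.91%, 5.36% and 7.31% of all genes tested. Egln1, Vegfa, Pdk1 and Bnip3 were highest there in all 3 tissues. Bnip3 held 40.5 CPM in its tail bud (median of the other libraries 23.0, highest 28.8), 93 CPM in its heart (median 64.3, highest 81.7) and 35.9 CPM in its remaining embryo (median 20.6, highest 24.7), which is 1.76, 1.45 and 1.74 times the median. Pdk1 held 237, 409.8 and 198 CPM there, 1.59, 1.29 and 1.45 times the median of the others.

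Egln1 in Delta_19 replicate 1 held 110.3 CPM in tail bud, 165 CPM in heart, and 119.9 CPM for the remaining embryo, and Vegfa held 144, 177 and 93 CPM. Slc2a1 was highest in its tail bud (554 CPM) and remaining embryo (586 CPM), and at 1343 CPM ranked 7 of 24 in heart. Ldha and Car9 were also highest in its remaining embryo, at 1470 and 2.33 CPM, but did not follow in every tissue. Car9 in its heart lay below all wild-type hearts, and Ldha in tail bud was highest in wild-type replicate 3. Hif1a mRNA went the other way: it was the lowest of all libraries in that tail bud (265 CPM) and remaining embryo (217 CPM) and ranked 23 of 24 in heart (488 CPM). The other 2 Delta_19 replicates did not share the pattern, with Bnip3 at 18.2 and 17.4 CPM in tail bud, among the low values. Of 52 other pathway genes, 17 of the 52 tested in tail bud, 8 of 51 in heart, and 18 of 52 for the remaining embryo were also highest in that replicate. In heart this was not particular to it: Delta_17_18_92 replicate 3 was highest for 10 of 51, beside 7.36% of all genes. In tail bud wild-type replicate 3 was highest for 11 of 52, beside 22.8% of all genes. The labels give no reason for the difference, and whether the 3 tissues of replicate 1 come from one embryo is not given in the sources used here.

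**Figure D5:**
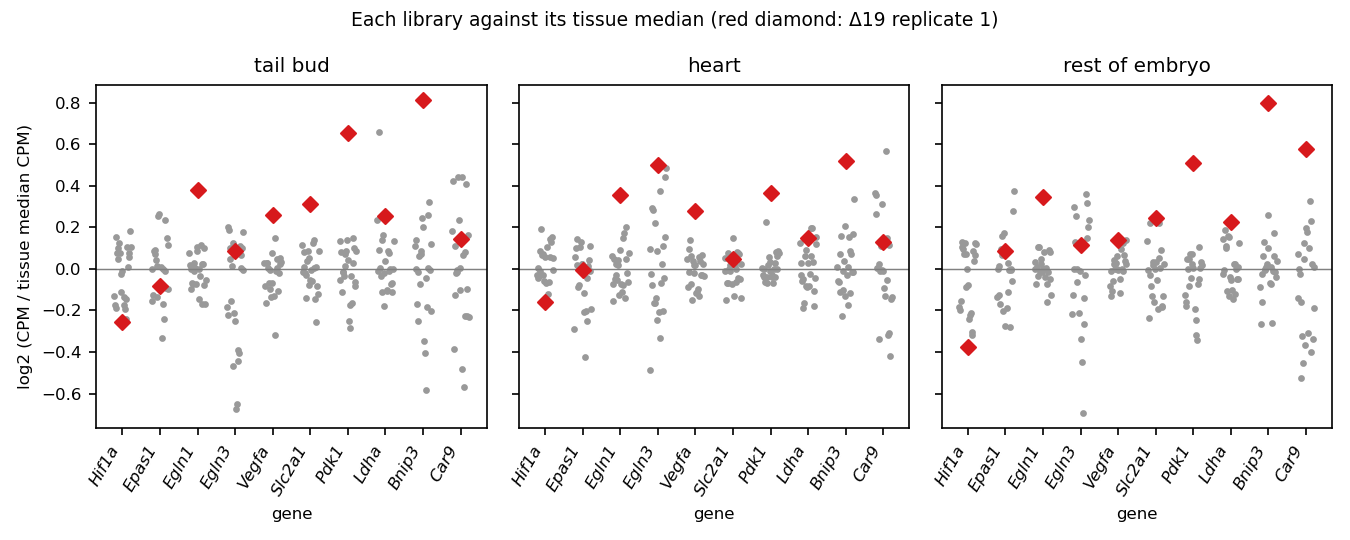
Level of each of the 10 genes (horizontal axis) in every library as the log2 ratio of its CPM to the median CPM of all libraries of that tissue (vertical axis), in tail bud, heart and the remaining embryo (panels); the red diamond is Delta_19 replicate 1 and grey points are the libraries of that tissue. The diamonds of Bnip3, Pdk1, Egln1 and Vegfa lie above all other libraries in the 3 tissues, and that of Hif1a lies below all others in tail bud and the remaining embryo.

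RefSeq promoter windows (GRCm38.p6, 250 bases before to 50 after a start site) were matched for 9 of the 10 genes, and all 9 held ACGTG or GCGTG on either strand in at least 1 window. ACGTG was present in 19.6%, GCGTG in 32.4% and either in 43.8% of 32851 promoter windows. These shares are per window, whereas the 9 are counted per gene. Vegfa, Pdk1 and Ldha had 2 windows each, and the second window of Pdk1, like the first of Vegfa, held neither element. The 4 genes that were highest together in Delta_19 replicate 1 are shown with 1 match each in capitals, in the direction of the gene. The Vegfa match lies on the strand opposite to the gene and so reads as the reverse complement, and the Bnip3 match overlaps a second match on that strand. The Vegfa match is from its second window (chr17:46025114-46025413). Its first window (chr17:46032328-46032627), which covers the annotated start of the gene, held neither element.
Egln1 (chr8:124949305-124949334, minus strand): gggccgtggtgtACGTGcagcgcgcgcgga
Vegfa (chr17:46025357-46025386, minus strand): ggagtgcgtgccCACGTcagagagcaacat
Pdk1 (chr2:71873134-71873163, plus strand): ccgcctacatggGCGTGtctttaaccaggg
Bnip3 (chr7:138909596-138909625, minus strand): cgcacgcgccgcACGTGccacacgctcccc

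Other hypoxia-linked genes were tested in the full knockout, where all genes passed at 10.4% (tail bud), 3.91% (heart) and 6.66% (remaining embryo). Of the 15 genes on the glycolysis list none passed in any tissue by edgeR, and 1, 0 and 3 had an unadjusted p under 0.05 in tail bud, heart and the remaining embryo. For the miR-17 loss term, Pfkp (phosphofructokinase) passed in heart (0.16 ± 0.04, adjusted p = 0.0139) and Tpi1 (triosephosphate isomerase) in the remaining embryo (0.16 ± 0.04, adjusted p = 0.0101). The Pfkp call ended without Delta_17 replicate 2 or 3, and the Tpi1 call ended without Delta_17 replicate 3.

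Of 18 other genes known to be induced by hypoxia, 1 rose and 2 fell in knockout tail bud, 1 of 17 tested rose in heart and 2 rose in the remaining embryo, against the same shares of all genes (10.4%, 3.91% and 6.66%). Car12, a carbonic anhydrase like Car9, rose in all 3 tissues. It went from 11.0, 11.4 and 9.34 CPM to 14.5, 15.8 and 15.2 CPM in the remaining embryo (0.52 ± 0.10, adjusted p = 0.00076), from 9.6, 9.68 and 10.2 CPM to 11.6, 13.6 and 12.6 CPM in tail bud (0.36 ± 0.10, adjusted p = 0.0202), and from 0.621, 0.792 and 1.22 CPM to 1.6, 1.52 and 1.67 CPM in heart (0.87 ± 0.24, adjusted p = 0.0364). The heart call ended without wild-type replicate 1 or 2 or any knockout library. It also ended with no filter on low counts and with only the 2 groups fitted. The tail bud call ended without knockout replicate 2 or 3 or with only the 2 groups fitted. Car12 has no miR-17 seed match in its longest 3′ UTR, and its miR-19 loss term was 0.26 ± 0.06 in tail bud (adjusted p = 0.00704).

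Epo, the erythropoietin gene, fell in knockout tail bud from 1.71, 2.19 and 1.85 CPM to 0.965, 1.19 and 0.914 CPM (-0.91 ± 0.20, adjusted p = 0.00569). That call ended with only the 2 groups fitted (adjusted p = 0.112). The summed level of the primitive erythroid markers was 3754 to 5616 CPM in wild-type tail bud and 799.8 to 3530 CPM in the knockout, with 0 of 7 markers called, and their part in the Epo result was not tested. Higd1a fell by 0.41 ± 0.12 (adjusted p = 0.0246), which ended without wild-type tail bud replicate 3, without knockout replicate 2 or 3, or with only the 2 groups fitted. The collagen cross-linking enzyme gene Lox had in the remaining embryo a miR-17 loss term of 0.38 ± 0.09 (adjusted p = 0.00336) and a miR-19 loss term of -0.44 ± 0.09 (adjusted p = 0.00233), and Pfkfb4 had a miR-17 loss term of -0.35 ± 0.08 (adjusted p = 0.0054).

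Of 8 VEGF ligands and receptors beside Vegfa, 1 rose and 1 fell in knockout tail bud, and 1 fell in heart and in the remaining embryo (10.4%, 3.91% and 6.66% of all genes passed in these tissues in either direction). The one that rose in tail bud was Nrp2 (0.23 ± 0.06, adjusted p = 0.0215), a call that ended without wild-type replicate 3 (0.15, adjusted p = 0.147), without knockout replicate 2 or 3, or with only the 2 groups fitted. Pgf, placental growth factor, fell in knockout tail bud from 4.16, 5.14 and 4.7 CPM to 2.22, 3.79 and 3.26 CPM (-0.58 ± 0.18, adjusted p = 0.0413) and in the remaining embryo from 6.32, 6.2 and 5.15 CPM to 4.19, 3.65 and 4.87 CPM (-0.47 ± 0.13, adjusted p = 0.0228). Both Pgf calls ended in 5 alternatives, the tail bud one among others without wild-type replicate 3. The co-receptor genes Nrp1 and Nrp2 rose with loss of miR-92, by 0.21 and 0.21 in tail bud (adjusted p = 0.00176 and 0.000221) and by 0.25 and 0.16 in the remaining embryo (adjusted p = 6.9e-05 and 6.39e-05). For the same term 1 of 6 endothelial markers passed as higher in tail bud, beside 2.75% of all genes. In the remaining embryo 4 of 6 did, beside 3.67%. There the summed endothelial level was 319 to 331 CPM in Delta_92 against 298 to 310 CPM in wild type, and its part in the Nrp1 and Nrp2 values was not tested.

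The genes whose levels followed Hif1a most closely were found over the 71 libraries after the mean of each tissue was subtracted, among 10265 genes. They were ENSMUSG00000049647, which has no symbol here (Pearson r = 0.890), Gm7334 (0.868), Topors (0.859), Sept2 (0.858) and Plekha3 (0.857). These values describe libraries that share genotypes and depth. All 5 had a positive miR-17 loss term that passed in each tissue, and in tail bud that term was 0.22 for Topors, 0.43 for Sept2 and 0.53 for Plekha3. The background share of such terms was 4.1% (tail bud), 2.84% (heart) and 4.79% (remaining embryo). The 5 were picked from the same libraries with genotype differences kept, and Hif1a itself had this term. That choice favours genes with a positive miR-17 term, so their passes are not a separate test of it. Among the 10 genes, the correlation with Hif1a was 0.403 for Egln3 and 0.361 for Epas1, 0.0419 for Vegfa and 0.0195 for Pdk1. It was -0.129 for Ldha, -0.135 for Bnip3, -0.222 for Egln1 and -0.249 for Slc2a1, and Car9 was too low to be compared.

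Some values carry a limit from how reads were assigned. Exons of Hif1a overlap Gm15283 on the opposite strand and Gm49321 on the same strand, and those of Slc2a1, Bnip3 and Car9 overlap an antisense gene each, and whether counting used strand is not given in the sources used here. The annotation also holds a processed pseudogene of Ldha, Ldha-ps, so the Ldha level is uncertain where reads match both.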

How the data were processed

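The authors deposited 1 table of whole-number read counts per Ensembl gene for 71 libraries. The submitters' processing notes list featureCounts (Subread 1.4.2), STAR 2.3.0 and SAMtools 0.1.14 beside the builds mm9 and NCBIM37. The annotation release, strand setting and treatment of reads with several matches are not given in the sources used here. Symbols came from GENCODE and matched 32897 of 37620 genes, and 5496 genes had no reads.

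From these counts, each tissue was fitted with edgeR 4.0.16 in R 4.3.3 (filterByExpr, TMM factors, robust quasi-likelihood test). After the filter, tail bud kept 17009 genes, heart 16750 and the remaining embryo 17512, and p-values were adjusted by Benjamini-Hochberg over all of them with a threshold of 0.05. SE is the log2 fold change divided by the square root of the F statistic. The biological coefficient of variation was 8.74%, 8.87% and 6.47%. A second fit coded each genotype by the seed families it lacks. Scripts were tested on simulated data.

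The 10 genes are always named. From each pathway list and tissue, up to 4 called genes of largest change in the full knockout and up to 2 per family term were eligible to be named, and the 5 genes most correlated with Hif1a (mean log2 CPM of at least 3). The genes and lists were chosen with earlier results of these data known. Alternatives were other scaling, no filter, DESeq2 1.42.0, only the 2 groups compared, a replicate block and leaving out each library. Sequences were read from RefSeq tables and GRCm38, which is not the build of the counts, so no position was carried over from them.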

Additional observations from a re-analysis of the deposited data

How the results depend on the processing

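Over the alternatives of the single-gene results, 3305 values kept their direction and their side of the threshold, 192 lost and 47 gained a call, and 15 changed sign, none of which had passed as fitted. Calls among the 10 genes in the mutants numbered 4 in tail bud, 0 with only the 2 groups compared and 4 to 9 on leaving out 1 library (9 without wild-type replicate 2). In heart they numbered 1, 3 with no filter on low counts, 0 with the replicate block and 0 to 1 without 1 library. In the remaining embryo they numbered 5, 18 with no filter, 13 with only the 2 groups compared and 4 to 11 without 1 library (11 without Delta_19 replicate 1, 8 without Delta_19 replicate 3). Family term calls numbered 2 in tail bud (1 to 2 without 1 library), 1 in heart (0 to 1) and 2 in the remaining embryo (2 to 4, and 4 with DESeq2 or the replicate block). Tissue tests of the knockout effect gave 0 calls, 1 with DESeq2 and 0 to 1 without 1 library. The 25 wild-type tissue calls became 23 to 25.

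Values that changed sign without 1 library spanned -0.0429 to 0.0129 (Hif1a, Delta_19, tail bud), -0.0235 to 0.00497 (miR-19 term, tail bud), -0.0253 to 0.00228 (miR-92 term, tail bud), -0.0222 to 0.0386 (Delta_18, heart), -0.0847 to 0.0484 (Delta_19, heart), -0.00311 to 0.0298 (miR-18 term, heart) and -0.0562 to 0.00667 (miR-19 term, heart) for Hif1a, and -0.0142 to 0.198 for Egln3 (Delta_17, tail bud). Tail bud against the remaining embryo in wild type spanned -0.133 to 0.0474 for Slc2a1 and -0.341 to 0.00379 for Car9. The difference of the Hif1a knockout effect between the remaining embryo and tail bud became -0.00331 with upper quartile factors. With the miR-17 term of all 71 libraries in place of the knockout, an alternative chosen after seeing the data, Bnip3 gave -0.0827 (heart minus tail bud) and -0.0181 (remaining embryo minus tail bud) and Pdk1 -0.0109 (heart minus tail bud). The cause of these changes was not tested.

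Over all genes, mutant calls in tail bud moved from 4696 to 297 with only the 2 groups compared, 10410 without wild-type replicate 2 and 2022 without wild-type replicate 3. In heart they moved from 1338 to 2040 with DESeq2, 3783 with no filter and 576, 757 and 822 without wild-type replicates 1, 2 and 3, and in the remaining embryo from 3698 to 5917 with no filter and 2159 without wild-type replicate 1. The tissue test moved from 7 to 92 with DESeq2, 53 with the miR-17 term, 44 with no filter, 3 with upper quartile factors and 1 to 39 without 1 library. Same-numbered libraries of a genotype in 2 tissues deviated together (r over 0.1) in 60 of 70 pairs (median r = 0.266, against -0.132 for different numbers). Deviations from a group mean cancel within the group, so the second median is not independent of the first. The main fits took all libraries as independent, which libraries of a shared embryo or litter would not be. For the tissue test of the knockout effect the replicate block joined equal numbers across genotypes, so no pairing within a genotype was fitted there. With the replicate block the all-gene mutant calls were 4713, 1197 and 3684.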
